A study of Mus musculus with 42 samples.

Results

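The genes examined were those of the proteasome and its regulators, taken as every gene whose name on the array is Psm followed by a letter from a to g and a digit. This gave 44 of the 27745 gene names on the array. Of these, 40 encode subunits other than the immune ones, activators or an inhibitor. They include the germ cell gene Psma8 and the assembly chaperones Psmd5, Psmd9 and Psmd10. Another 3 encode the immune catalytic subunits (Psmb8, Psmb9 and Psmb10). The last 1, Psmc3ip, shares the prefix but encodes a meiotic recombination factor and was kept apart. No name with the letter g, which marks further assembly chaperones, was found. The study compared mice lacking 1 copy of Akt1 (Akt1+/-), a kinase of the insulin signalling pathway, with wild-type (Wt) mice. Female C57BL/6 mice gave total RNA of 3 tissues (visceral fat, skeletal muscle and liver), which was hybridised to 1-colour Agilent arrays, with 3 arrays per genotype and tissue at 8 weeks and 4 at 35 weeks, 42 arrays in all. The labels give 35 weeks for the older mice, while the study's methods give a somewhat later age. The Akt1 copy was missing in every cell of the Akt1+/- mice, so no tissue of theirs was intact, and no group received a treatment. The labels number the arrays of a group without saying that each came from its own mouse, so the p-values measure the spread between these samples.

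The proteasome is the protease that degrades proteins tagged with ubiquitin. Its 20S core is a barrel whose outer rings are built of alpha subunits and whose inner rings are built of beta subunits, and Psmb5, Psmb6 and Psmb7 encode the beta subunits that cut peptide bonds. Cells exposed to interferon, and many immune cells, make Psmb8, Psmb9 and Psmb10 in their place, which changes the peptides offered to MHC class I molecules. The 19S cap, built of the Psmc ATPases and the Psmd subunits, recognises and unfolds tagged proteins. PA28 (Psme1 with Psme2, or Psme3 alone in the nucleus) and PA200 (Psme4) are alternative caps, and Psmf1 encodes an inhibitor.

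All values below are log2 levels relative to the 75th percentile of the probes on the same array, so a level of 0 equals that percentile and a difference of 1 is a 2-fold change. One probe, the brightest over all arrays, stands for each gene, and levels are compared for 1 gene between samples, not between genes. Between 57.2 and 69.2% of probes were well above background per array, and no probe was saturated. All 44 genes were well above background on all 14 arrays of each tissue, except Psma8 on 0 of 14 muscle arrays and Psmc3ip on 13 of 14 liver arrays. Marker levels, summed on a linear scale where 1 is the 75th percentile of the array, followed the tissue labels. Liver markers reached 876 to 1597 in liver and at most 6.98 elsewhere, skeletal muscle markers 3497 to 4847 in muscle and 15.3 to 101 in fat, and fat markers 764 to 1195 in fat and 20.3 to 153 in muscle. Ovary, oocyte and pancreas markers summed to at most 0.641 in every tissue. The Akt1 probe read 0.615 to 0.872 times the wild-type level in the 6 tissue and age pairs, with each Akt1+/- array below each Wt array of its pair. This probe was dim, with group means of -4.10 to -2.99, so the ratios are no exact measure of dosage. At 35 weeks each genotype of each tissue filled a slide of its own, and the 8-week liver genotypes were on different slides too, so genotype and slide cannot be told apart there. No slide or scan day held both ages, so age and scan day cannot be told apart in any tissue. In bulk tissue, fewer cells of a type and less RNA per cell cannot be told apart.

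Tissue set the level of most of these genes, whereas genotype moved none of them past the test. Most of the 40 subunit and regulator genes had lower levels in fat, with a median difference of -1.01 against liver and -1.35 against muscle. The immune subunits Psmb8 and Psmb9 went another way and were lowest in muscle. Differences between tissues were called at an adjusted p below 0.05 and at least 2-fold, in 1 limma fit over the 42 arrays.

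**Figure D1:**
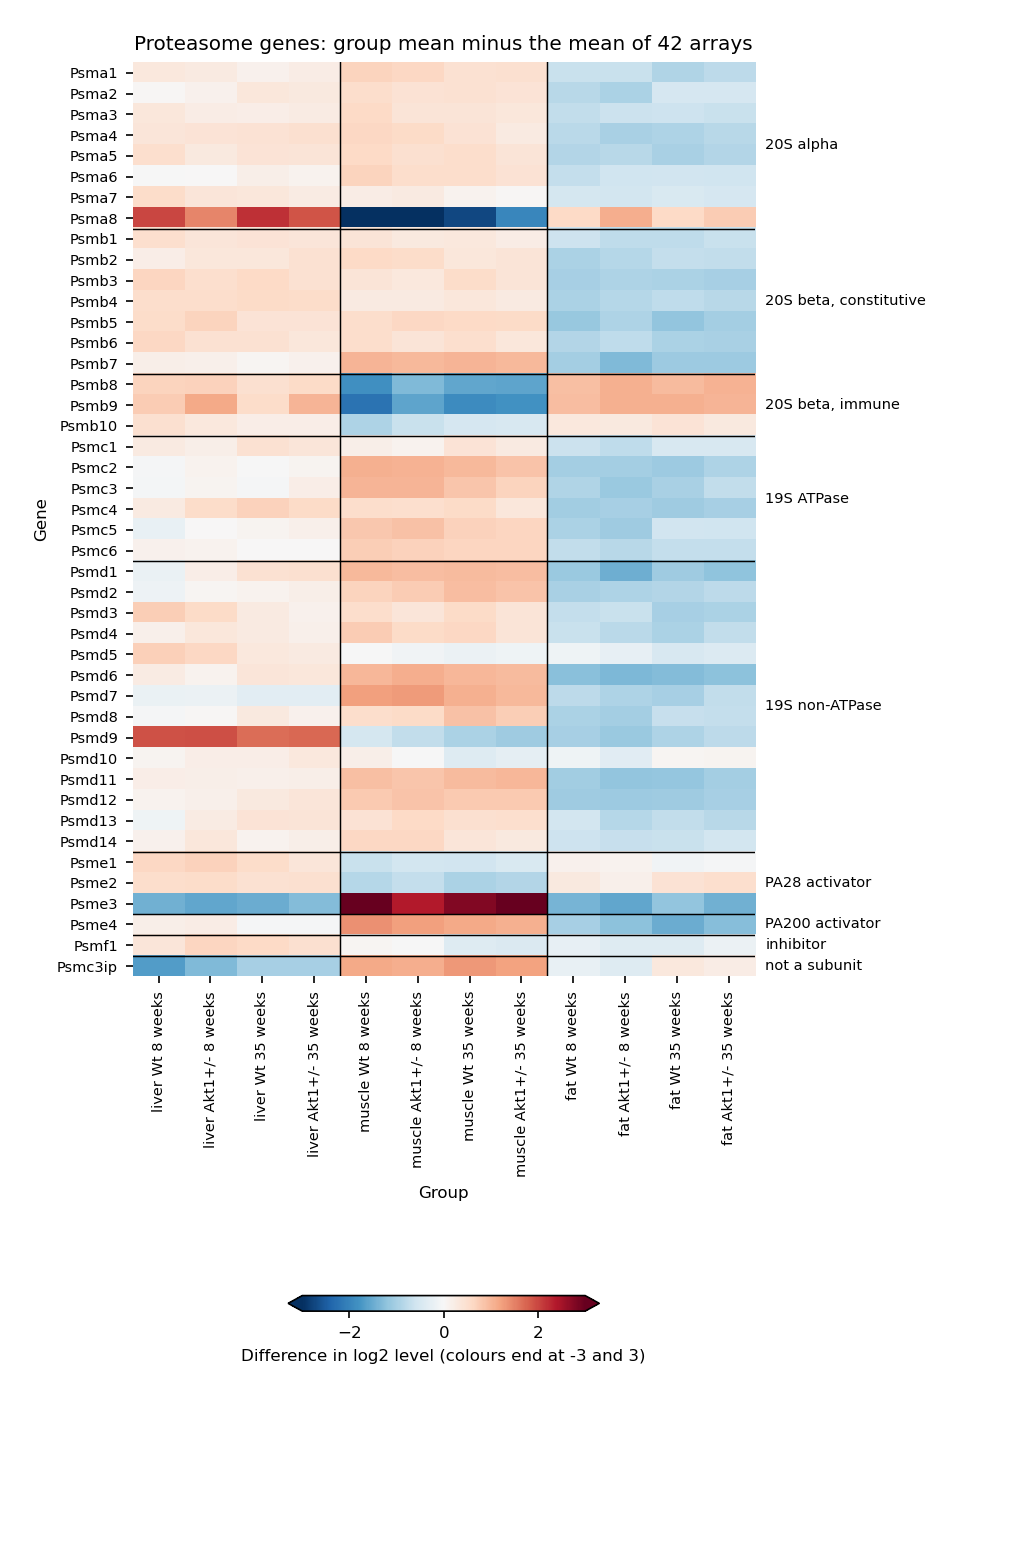
Mean log2 level of each of the 44 genes (rows, grouped by role) in the 12 groups of tissue, genotype and age (columns), minus the mean of that gene over the 42 arrays. Most rows are blue in fat, the rows of Psmb8, Psmb9 and Psmb10 are blue in muscle, and the Wt and Akt1+/- columns of 1 tissue and age look alike; Psma8 in muscle was not above background.

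Against muscle, fat had 36 of the 44 genes past the test, 4 higher and 32 lower, while of all 19853 genes tested 26.6% were higher and 21.5% lower. The median of the 44 was -1.31 and that of all genes -0.01. Against liver, 21 passed, 1 higher and 20 lower, beside 23.7% higher and 20.4% lower among all genes. Here the median was -0.97, and -0.04 over all genes. Muscle and liver were closer, with 10 of 44 called (4 higher and 6 lower in muscle) beside 25.1% and 23.7% of all genes and a median of 0.16. The size of the fat difference depended on the processing, and the setting below changed background correction and normalisation together. With normexp correction and quantile normalisation, 5 genes passed against liver (Psmb5, Psmc4, Psmd1, Psmd6 and Psmd9, all lower) and 23 against muscle (5 higher, 18 lower), with medians of -0.46 and -0.81, while the shares of all genes called lower fell to 10.9 and 11.9%. Under that setting 36 of the 44 differences were below 0 against liver and 37 against muscle.

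The alpha ring genes, which form the gate of the barrel, showed the fat difference in 6 of 8 against muscle and 3 of 8 against liver (Psma4, Psma5 and Psma8). Psma5 had log2 levels of 4.56 to 4.95 (median 4.71) on the 14 fat arrays. It ran from 5.74 to 6.38 (median 5.99) in liver and from 5.75 to 6.30 (median 6.11) in muscle. No fat array reached any array of the other tissues, and the differences were -1.29 ± 0.06 (SE) against liver and -1.39 ± 0.06 against muscle, with adjusted p of 6.53e-21 and 7.2e-22. Psma4 was lower in fat by nearly the same amount, -1.31 ± 0.06 against liver and -1.36 ± 0.06 against muscle, and its second probe gave -1.32 in both. Psma1, Psma2, Psma3 and Psma6 lay between -1.11 and -1.31 for fat against muscle, all past 2-fold, and between -0.69 and -0.99 for fat against liver, all short of it. Psma7 had the smallest fat differences of the ubiquitous alpha genes against muscle, -0.67 ± 0.05, which did not reach 2-fold.

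Psma8, the germ cell counterpart of Psma7, was the exception in this ring against muscle. Against liver it was called lower in fat, though not with each array left out in turn. Its level was -2.92 to -0.77 (median -1.25) in liver and -3.21 to -1.30 (median -2.62) in fat. In muscle it was not well above background on any array, so liver was at least 14.2-fold and fat at least 6.39-fold higher than muscle. For these folds the muscle level was set to the dimmest level well above background on the array, or to its own reading where that was higher. No p-value is given for them. Psma8 is among the genes counted as called in both comparisons with muscle above. Psma8 has a close relative on the array, and whether its probe also bound Psma7 RNA was not tested.

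All 7 constitutive beta genes passed the test against both tissues and were lower in fat. Psmb5, the chymotrypsin-like subunit, was at 2.81 to 3.73 (median 3.18) in fat. It was at 4.55 to 5.18 (median 4.82) in liver and 4.75 to 4.98 (median 4.89) in muscle. These ranges do not meet, and the differences were -1.58 ± 0.07 against liver (adjusted p = 1.58e-20) and -1.65 ± 0.07 against muscle (adjusted p = 4.48e-21), while muscle and liver differed by 0.07 ± 0.07 (adjusted p = 0.356). Psmb6, the caspase-like subunit, followed the same order, with -1.36 ± 0.05 against liver and -1.33 ± 0.05 against muscle. For Psmb7, the trypsin-like subunit, muscle also stood above liver, by 0.87 ± 0.06, and fat minus muscle was -2.12 ± 0.06. The structural genes Psmb1, Psmb2, Psmb3 and Psmb4 differed by -1.11 to -1.52 between fat and liver. Under normexp, Psmb5 was the 1 gene of the 7 that still reached 2-fold against liver, with Psmb6 at -0.49 and Psmb7 at -0.80. Against muscle Psmb2, Psmb5 and Psmb7 still did, and Psmb6 was at -0.69.

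The 3 immune catalytic subunits were not lower in fat. Psmb8, which replaces Psmb5, was at 2.75 to 3.27 (median 2.99) in fat and 2.28 to 2.96 (median 2.54) in liver. In muscle it ran from -0.06 to 0.90 (median 0.37). Every muscle array lay below every array of the other tissues, and fat was 5.92-fold above muscle (2.56 ± 0.08, adjusted p = 1.02e-24). Its second probe gave 2.38. Psmb9, which replaces Psmb6, had levels of -0.95 to 0.33 in muscle, 1.86 to 3.06 in liver and 2.03 to 2.92 in fat, and fat was 7.47-fold above muscle (2.90 ± 0.12, adjusted p = 1.97e-21). Liver and fat overlapped for this gene and differed by 0.16 ± 0.12 (adjusted p = 0.214). Psmb10, which replaces Psmb7, was lower in muscle too, at 2.52 to 3.39 against 3.45 to 4.20 in liver and 3.62 to 4.04 in fat. Its difference of 0.98 ± 0.07 between fat and muscle (adjusted p = 8.25e-15) fell just short of 2-fold, and was 1.40 under normexp and 1.08 in the wild-type arrays alone.

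**Figure D2:**
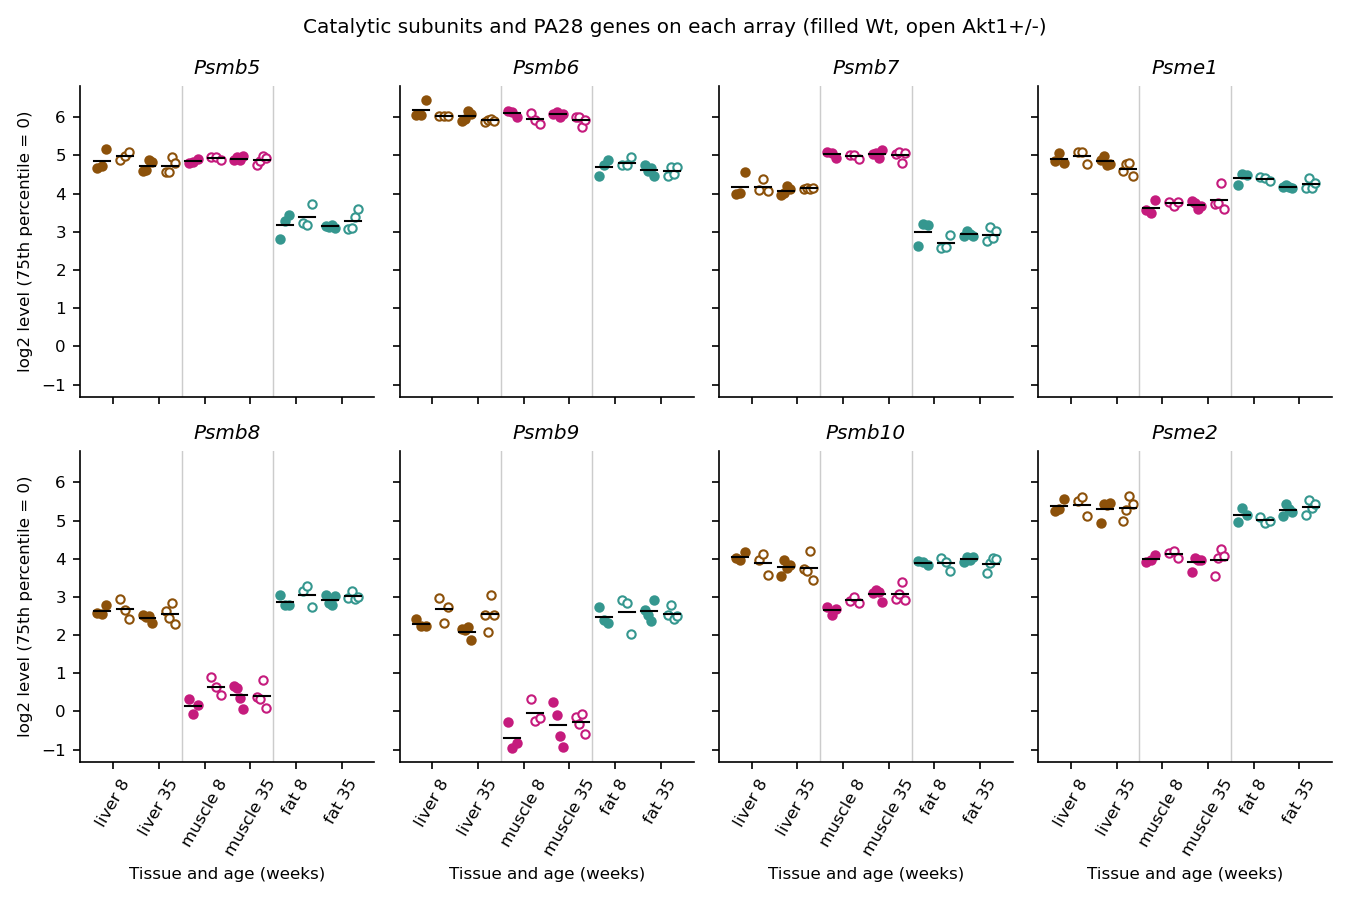
Log2 level (y axis, 0 is the 75th percentile of the array) of 3 constitutive catalytic subunits, their 3 immune counterparts and both PA28 genes on each of the 42 arrays, by tissue and age in weeks (x axis), with filled points for Wt, open points for Akt1+/- and a line at each group mean. Psmb5, Psmb6 and Psmb7 drop in fat, whereas Psmb8 lies between -0.06 and 0.90 in muscle and between 2.28 and 3.27 in liver and fat.

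Markers of immune cells moved with this pattern. The 4 leukocyte markers summed to 0.789 to 2.66 in muscle, 4.71 to 8.70 in liver and 8.34 to 17.8 in fat, and all 4 passed the test as lower in muscle than in liver. Of the macrophage markers 4 of 5 were lower in muscle, of the T cell markers 4 of 5 and of the B cell markers 3 of 4. In each muscle group 3 or 4 of the 4 leukocyte markers were well above background. Blood markers summed to 11.3 to 96.3 in liver, 52.4 to 203 in muscle and 122 to 639 in fat. The part of these cells in the levels of Psmb8, Psmb9 and Psmb10 was not tested.

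The promoter windows of the catalytic genes are shown because constitutive and immune members took different levels in muscle and fat. RefSeq windows (GRCm38.p6, 250 bases before to 50 after the start) were matched for 37 of the 44 genes, in 40 windows, and Psmb7 was among the genes without one. Both strands were searched for TGACNNNGC (antioxidant response element core), GAAANNGAA (interferon-stimulated response element), TTCNNNGAA (gamma-activated site, the same on both strands) and CCAAT. Below are the 120 bases before the start, 5′ to 3′ on the strand of the gene, with matches to any of the 4 motifs in capitals. They come from chr14:54617996-54618115 (minus strand) for Psmb5, chr11:70525237-70525356 (plus) for Psmb6, chr17:34198075-34198194 (plus) for Psmb8, chr17:34187331-34187450 (minus) for Psmb9 and chr8:105938393-105938512 (minus) for Psmb10.
Psmb5: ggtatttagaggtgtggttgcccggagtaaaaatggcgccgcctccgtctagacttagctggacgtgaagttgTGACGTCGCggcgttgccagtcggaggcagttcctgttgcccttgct
Psmb6: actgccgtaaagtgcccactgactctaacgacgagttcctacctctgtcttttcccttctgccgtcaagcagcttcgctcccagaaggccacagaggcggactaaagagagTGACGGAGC
Psmb8: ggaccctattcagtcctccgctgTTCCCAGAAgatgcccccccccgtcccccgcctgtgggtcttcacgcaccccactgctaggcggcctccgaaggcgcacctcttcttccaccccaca
Psmb9: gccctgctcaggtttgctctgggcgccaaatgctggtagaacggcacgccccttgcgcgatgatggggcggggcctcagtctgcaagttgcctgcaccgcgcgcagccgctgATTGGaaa
Psmb10: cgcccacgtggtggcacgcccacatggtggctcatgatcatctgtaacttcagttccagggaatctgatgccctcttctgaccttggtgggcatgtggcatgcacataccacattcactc

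The capitals in Psmb5 and Psmb6 are the antioxidant response element core, starting at -47 and -9 from the start. In Psmb8 they are a gamma-activated site at -97, and in Psmb9 a CCAAT box on the other strand at -8, while no letters matched in the Psmb10 stretch. Over the 37 genes, the antioxidant core was found in 6, beside 12.4% of all 32851 promoter windows, and the interferon-stimulated element in 6, beside 8.56%. The gamma-activated site was found in 2 (Psmb8 and Psmd2), beside 8.3% of all windows, and CCAAT in 14, beside 37.4%. A match says that these letters are present and not that a factor binds there.

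The 6 ATPases of the 19S base, which unfold substrates, were lower in fat than in muscle in 5 of 6 and lower than in liver in 2 of 6 by the 2-fold rule. Psmc4 was at 3.06 to 3.56 (median 3.18) in fat, below its 4.44 to 5.02 in liver and 4.32 to 4.99 in muscle. The fat differences were -1.55 ± 0.06 against liver and -1.52 ± 0.06 against muscle (adjusted p = 4.86e-23 and 8.85e-23), and its second probe gave -1.51 and -1.73. Psmc2 showed 3 separate levels, highest in muscle, with -1.04 ± 0.05 between fat and liver and 0.95 ± 0.05 between muscle and liver. The second Psmc2 probe gave smaller values of -0.55 and 0.29. Psmc1, at -0.83 ± 0.05, was the ATPase gene short of 2-fold between fat and muscle, and Psmc3 and Psmc5 were at -1.82 ± 0.07 and -1.55 ± 0.06. Psmc6 probes also disagreed in size, with -0.81 and -2.01 for fat against liver.

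Of the 14 Psmd genes, 11 were lower in fat than in muscle and 7 lower than in liver. Psmd6, a lid subunit, was at 2.57 to 2.92 (median 2.75) in fat, at most 4.58 (median 4.33) in liver and 4.78 to 5.26 (median 5.05) in muscle. The 3 tissues did not overlap, and fat minus muscle was -2.29 ± 0.05 (adjusted p = 5.72e-29). The scaffold genes of the base, Psmd1 and Psmd2, were at -2.15 ± 0.07 and -1.70 ± 0.05 for the same comparison. The lid genes Psmd3, Psmd8, Psmd11, Psmd12, Psmd13 and Psmd14 lay between -1.11 and -2.02, and Psmd14 encodes the enzyme that removes ubiquitin from substrates. Psmd4, a ubiquitin receptor, was at -1.38 ± 0.06, but its second probe gave -0.19. Psmd7, another lid subunit, was the Psmd gene past 2-fold higher in muscle than in liver, at 1.39 ± 0.05 (adjusted p = 2.86e-23), although 1 of its 3 probes gave 0.43. Psmd9, a chaperone that helps build the base, had its high level in liver, at 2.72 to 3.30 (median 3.01). Its levels were 0.11 to 0.73 in muscle and 0.01 to 0.53 in fat, which overlap with each other but not with liver. The differences from liver were -2.63 ± 0.04 in muscle and -2.76 ± 0.04 in fat (adjusted p = 1.04e-32 and 5.1e-33), and the second probe gave -1.32 and -2.19. Psmd10, or gankyrin, another base chaperone, was close between fat and muscle (0.04 ± 0.05, adjusted p = 0.412) and lower than in liver in both, at -0.28 ± 0.05 and -0.32 ± 0.05.

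The alternative caps did not share a pattern. Psme1 and Psme2, which form the interferon-induced PA28, followed the immune subunits with their lowest levels in muscle. Psme2 was at 3.55 to 4.26 (median 4.01) in muscle, 4.93 to 5.64 (median 5.42) in liver and 4.93 to 5.53 (median 5.19) in fat. Muscle did not overlap with either tissue and muscle minus liver was -1.36 ± 0.08 (adjusted p = 1.32e-17). For Psme1 the muscle difference was -1.12 ± 0.06 against liver, which was -0.95 and so under 2-fold with normexp, and fat stood 0.58 ± 0.06 above muscle. Psme3, the nuclear PA28 subunit, had the opposite order. It was at 4.70 to 5.74 (median 5.43) in muscle, 0.93 to 1.46 (median 1.15) in liver and 0.70 to 1.57 (median 1.33) in fat. Muscle stood far above both, 19.1-fold over liver (4.25 ± 0.08, adjusted p = 7.74e-31), and liver and fat overlapped, with a difference of 0.06 ± 0.08 (adjusted p = 0.499). A single probe (chr11:101138961-101139021 in the mm8 build of the array files) carries this value, so no second probe bears on it. Psme4 was highest in muscle, at 6.12 to 7.11 (median 6.89), and lowest in fat, at 3.99 to 4.80 (median 4.32), a difference of -2.46 ± 0.06 (adjusted p = 6.53e-27). Its other probes that were well above background on all arrays gave -3.13 and -3.15. The inhibitor Psmf1 was lower than in liver in both other tissues, at -0.72 ± 0.04 in muscle and -0.82 ± 0.04 in fat, under 2-fold. Psmc3ip, which is no subunit, was 2.44 ± 0.08 higher in muscle than in liver and 1.23 ± 0.08 higher in fat than in liver.

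**Figure D3:**
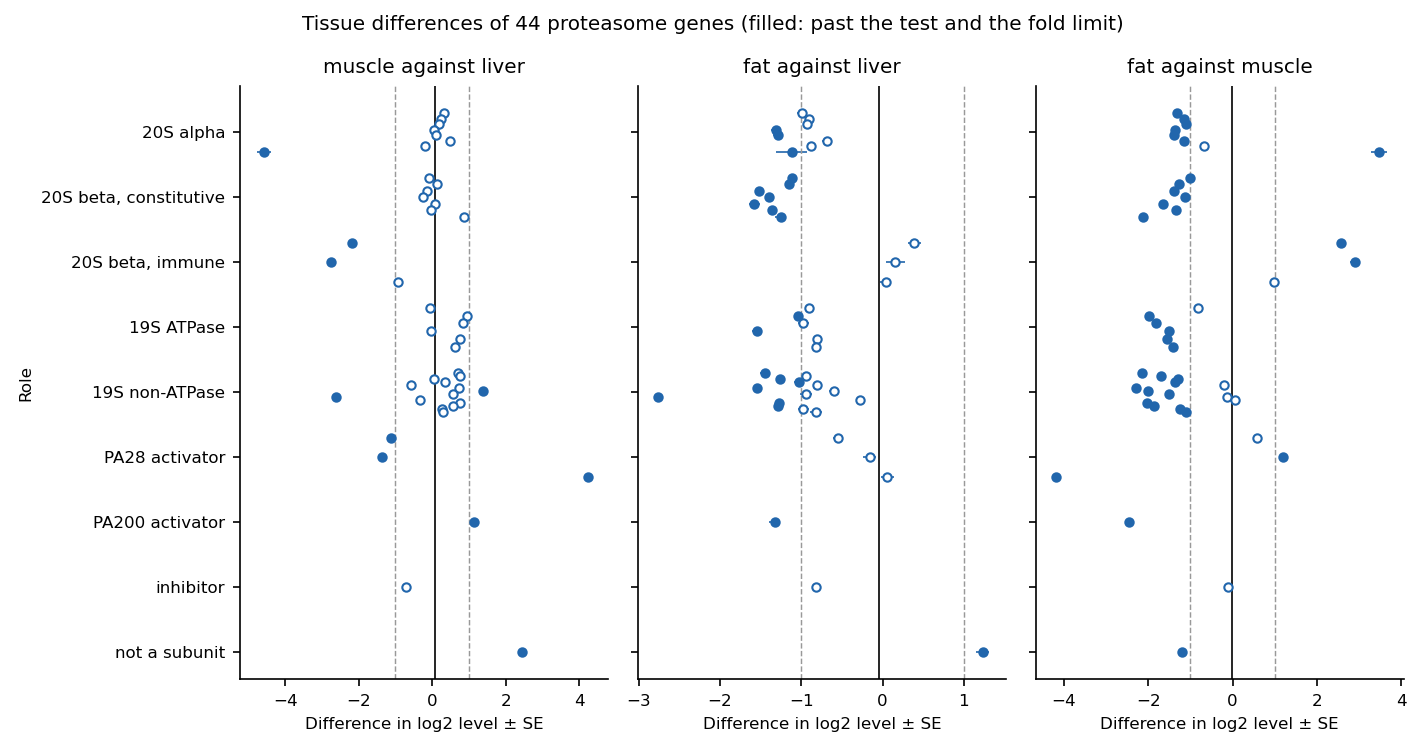
Difference in log2 level between tissues (x axis, points with SE) for the 44 genes, arranged by role (y axis); filled points passed the test and 2-fold, dashed lines mark 1 and -1, and the solid line is the median of all 19853 genes. In both fat panels all 7 constitutive beta genes lie left of -1, whereas the 3 immune genes lie right of 0; the outlying alpha gene in the panels with muscle is Psma8, which was not above background there, so its point is no measured fold.

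The wider ubiquitin and antigen processing genes were examined through lists that do not include the 44. Of 20 measured proteasome partners and regulators, 10 (50%) were lower in fat than in muscle, beside 21.5% of all genes, and none higher. Against liver 4 (20%) were lower in fat, near the 20.4% of all genes, and none higher. Among the 20, Nfe2l1, a transcription factor known to drive proteasome subunit genes, differed by -1.89 ± 0.07 between fat and muscle. Between muscle and liver it differed by 2.49 ± 0.07, so its RNA was lowest in liver. Its part in the levels of the subunit genes was not tested. Zfand5, a proteasome-binding zinc finger protein, was 3.97 ± 0.05 higher in muscle than in liver. Among the ubiquitin and ubiquitin-activation genes, Ubb, which encodes a polyubiquitin, was 1.19 ± 0.06 higher in muscle than in liver. Among the muscle ubiquitin ligases 3 of 5 were higher and 1 lower in muscle than in liver, including Fbxo30 at 1.48 ± 0.07.

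Class I antigen processing genes and interferon response genes followed the immune subunits. In muscle, 11 of 12 class I genes and 14 of 17 interferon response genes were lower than in liver and none higher, with medians of -2.23 and -2.47. B2m, the light chain of class I molecules, differed by -3.60 ± 0.08, and H2-K1, a heavy chain, by -3.96 ± 0.07. Against fat, muscle was lower for 10 of 12 and 13 of 17, with Tap1, a peptide transporter gene near Psmb9, at 2.76 ± 0.10 (fat minus muscle). Between fat and liver the class I list had 1 gene called, Calr at -1.23 ± 0.11. The interferon list had 1 higher and 6 lower in fat, among them Gbp2 at 2.36 ± 0.12 and Iigp1, an interferon-inducible GTPase, at -3.98 ± 0.15.

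With age (35 minus 8 weeks, both genotypes), 20 of the 44 genes were called in at least 1 tissue, beside 54.6% of all genes tested, and none of these differences reached 1 on the log2 scale. In liver 9 of 44 were called, 5 higher (11.4%) and 4 lower (9.09%), below the 19.7% and 15% of all 17457 genes tested. In muscle 11 of 43 were called, 3 higher (6.98%) and 8 lower (18.6%), beside 16.7% and 14.5% of all genes. In fat 7 of 44 were called, 4 higher (9.09%) and 3 lower (6.82%), beside 9.96% and 9.37%. The medians of the members were -0.01 (liver), -0.07 (muscle) and 0.04 (fat), against 0.01, 0.01 and 0.01 for all genes. The liver split depends on scaling: scaled to the median of each array, 1 member was higher and 17 lower, while all genes shifted to a median of -0.18 and to 11.3% higher and 35.5% lower, so liver age directions hold relative to the 75th percentile. With normexp and quantile normalisation the liver split was 12 higher and 3 lower, and the muscle split 2 higher and 14 lower.

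In liver, 6 of the 14 Psmd genes (42.9%) and 1 of the 6 Psmc ATPase genes (16.7%) were called, beside 34.8% of all genes. Of the cell markers in liver, 3 of 4 B cell genes and 2 of 5 macrophage genes were also higher at 35 weeks. So were 1 of 4 leukocyte genes, 1 of 5 T cell genes and the 1 pancreas gene tested, while 1 of 4 liver genes was lower. Among all genes 19.7% were higher and 15% lower. The part of these cells was not tested. Psmd3, a lid subunit, was at 6.90 to 7.24 (median 7.17) at 8 weeks and 6.45 to 6.76 (median 6.64) at 35 weeks. The 2 ages did not overlap, and the difference was -0.47 ± 0.07 (adjusted p = 0.000329). Psmd5, a base assembly chaperone, fell by 0.38 ± 0.10 with overlapping ages, and Psme4 fell by 0.23 ± 0.06, from 5.72 to 6.02 at 8 weeks to 5.53 to 5.69 at 35 weeks, without overlap. Psmd9 fell by 0.23 ± 0.08. Psmd1, the large scaffold of the base, rose by 0.48 ± 0.08 (adjusted p = 0.00079), from 2.70 to 3.38 at 8 weeks to 3.29 to 3.54 at 35 weeks, with ranges that overlap. Psmd13 rose by 0.34 ± 0.11, Psmc4 and Psmd8 by 0.22 ± 0.07 and 0.21 ± 0.07, and Psmc3ip, which is no subunit, by 0.51 ± 0.17. Psmd1, Psmd3, Psmd5 and Psme4 passed with each array left out in turn. The count was 4 without Wt 8-week replicate 1 or 2, without Akt1+/- 8-week replicate 1 or without Akt1+/- 35-week replicate 3, and 5 without Wt 35-week replicate 3. For Psme4, 1 of its other probes gave 0.46 in liver. No catalytic gene was called in liver, where Psmb8 and Psmb9 differed by -0.16 ± 0.11 and -0.17 ± 0.14.

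Muscle had more members lower than higher with age. Of the cell markers in muscle, 4 of 6 skeletal muscle genes and 1 of 4 fat genes were higher and 2 of 2 blood genes lower at 35 weeks. Higher too were 1 of 3 B cell and 1 of 5 macrophage genes. Among all genes 16.7% were higher and 14.5% lower. The part of these cells was not tested. Psmf1, the inhibitor, had levels of 0.08 to 0.29 (median 0.20) at 8 weeks and -0.37 to -0.11 (median -0.21) at 35 weeks. These do not overlap, and the gene fell by 0.43 ± 0.05 (adjusted p = 0.000148). Its other probes gave -0.51 and -0.16. Psmd10 went from 0.23 to 0.60 (median 0.51) down to -0.08 to 0.18 (median 0.03), again without overlap, a difference of -0.41 ± 0.06 (adjusted p = 0.000422). Psmd9 fell by 0.37 ± 0.06 (adjusted p = 0.000515), though its second probe gave -0.03. The ATPase gene Psmc3, the beta gene Psmb2, the alpha gene Psma4 and the lid genes Psmd7 and Psmd14 fell by 0.22 to 0.29 on the log2 scale, although another probe of Psmd7 gave 0.18. Psmb10 rose by 0.30 ± 0.08 (adjusted p = 0.0181), from 2.52 to 2.99 at 8 weeks to 2.86 to 3.39 at 35 weeks with overlap, Psmc1 rose by 0.21 ± 0.07 and Psmc3ip by 0.15 ± 0.05. Psmb8 and Psmb9 did not pass, at 0.02 ± 0.13 and 0.04 ± 0.19. Psmb2, Psmc3, Psmd9, Psmd10 and Psmf1 passed with each array left out in turn, and the count was 6 without Wt 8-week replicate 1 and 7 without Wt 8-week replicate 2.

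In fat, Psmc3ip had the largest called difference, 0.59 ± 0.07 (adjusted p = 0.000453), with a second probe at 0.17. Among the subunits, Psma2, an alpha ring gene, was at 4.65 to 5.06 (median 4.83) at 8 weeks and 5.12 to 5.33 (median 5.24) at 35 weeks. The ages did not overlap and the gene rose by 0.38 ± 0.07 (adjusted p = 0.00406). Psmc5, a base ATPase, rose by 0.42 ± 0.08, with a second probe at 0.04. Psmd10 rose by 0.31 ± 0.07, from -0.00 to 0.33 at 8 weeks to 0.27 to 0.57 at 35 weeks. Psmd3 fell by 0.28 ± 0.07, Psme4 by 0.28 ± 0.09 and Psmd5 by 0.25 ± 0.07. Psma2, Psmc3ip, Psmc5, Psmd10 and Psmd3 passed with each array left out in turn, whereas Psme4 lost its call in 12 of 14 such fits and Psmd5 in 5. The other Psme4 probes that were well above background on all fat arrays gave -0.54 and 0.34. Among cell markers in fat, 2 of 4 leukocyte genes were lower and 3 of 5 T cell genes higher at 35 weeks, beside 9.37% lower and 9.96% higher among all genes. Of 5 macrophage genes 1 was higher and 1 lower, as were 1 and 1 of 5 fat genes. Higher too were 1 of 4 B cell, 1 of 6 skeletal muscle and 1 of 2 ovary and oocyte genes. The part of these cells in the values was not tested.

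The related lists were also counted for age. Among all genes, 34.8% were called in liver and 31.3% in muscle, and in fat 9.96% were higher and 9.37% lower. Of the 20 partners and regulators, 2 were higher and 9 lower in liver (55% called). In muscle 2 were higher and 5 lower, and in fat 3 were higher and 4 lower (35% called in each). Partners in muscle, interferon genes in fat (12.5% called) and class I genes in muscle and fat (8.33% each) were near or below the shares of all genes. Rad23b, which carries ubiquitinated proteins to the proteasome, fell by 0.78 ± 0.10 in liver and 0.85 ± 0.09 in fat. Ufd1l, a cofactor of the unfoldase Vcp, fell by 0.62 ± 0.06 in muscle. Interferon response genes were lower in 8 of 17 and higher in 1 in liver. They were lower in 6 of 16 and higher in 1 in muscle, and 1 of 16 each way in fat. Of the 12 class I genes, 1 was higher and 4 lower in liver, 1 was lower in muscle and 1 higher in fat. Of the 5 ubiquitin genes 1 was higher in liver, 2 in muscle and 0 in fat, where 1 had an unadjusted p below 0.05 by limma's test. Of the muscle ligases 3 of 4 were lower in liver. In muscle and in fat 0 of 5 passed limma's test, with 0 and 1 at an unadjusted p below 0.05.

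**Figure D4:**
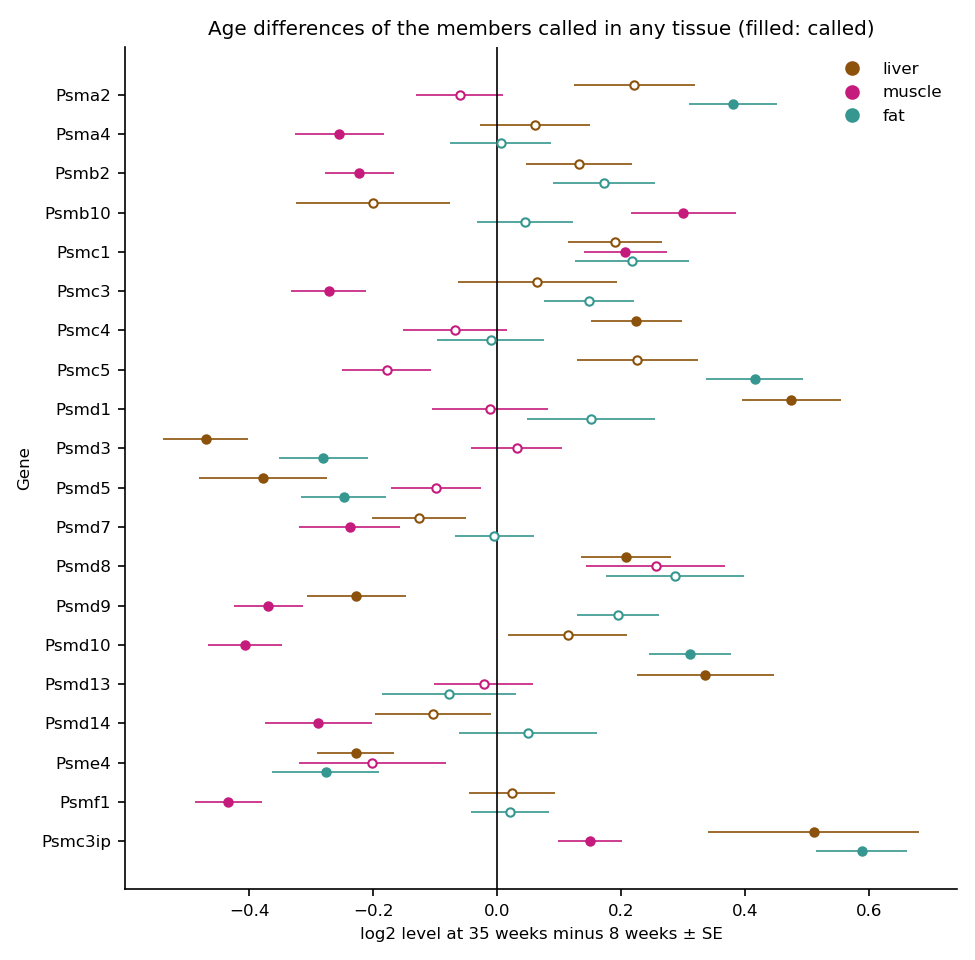
Difference in log2 level between 35 and 8 weeks (x axis, points with SE) in liver, muscle and fat for the 20 genes (y axis) called in at least 1 tissue; filled points were called. Psmd10 lies at -0.41 in muscle and 0.31 in fat, and Psmd3 lies below 0 in liver and fat but at 0.03 in muscle.

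The age change itself was compared between tissues in the fit over 42 arrays. Between muscle and liver 8 members were called, 2 higher and 6 lower, beside 9.02% and 9.7% of all genes. Between fat and liver 2 were called, 1 in each direction, beside 6.32% and 9.84%, and between fat and muscle 8, with 7 higher and 1 lower, beside 7.79% and 8.58%. These 3 comparisons share their arrays. With normexp and quantile normalisation the splits were 2 higher and 14 lower between muscle and liver and 13 higher and 0 lower between fat and muscle, and with median scaling 4 higher and 2 lower between muscle and liver and 9 higher and 0 lower between fat and liver. Psmd10 had an age change 0.72 ± 0.10 larger in fat than in muscle (adjusted p = 1.9e-05) and -0.52 ± 0.10 in muscle relative to liver. For Psmd9 the change was 0.56 ± 0.09 larger in fat than in muscle and 0.42 ± 0.09 larger than in liver. Psmf1 differed by -0.46 ± 0.08 between muscle and liver and 0.45 ± 0.08 between fat and muscle, and both fell short of the test when all probes of the gene were averaged. Psmd3 differed by 0.50 ± 0.10 between muscle and liver, and so did the immune subunit gene Psmb10, by 0.50 ± 0.14 (adjusted p = 0.0114). For Psmd13 the difference of -0.41 ± 0.14 between fat and liver (adjusted p = 0.0463) no longer passed under 4 other settings, median scaling, no filter on dim probes and either block.

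The question of genotype gave no called member. In liver, muscle and fat, 0 of 44, 0 of 43 and 0 of 44 genes passed limma's test, with 2, 4 and 1 at an unadjusted p below 0.05, beside 26.2, 18.3 and 19.2% of all genes. Among all genes the shares were 3.56% higher and 2.45% lower in liver, 0% and 0% in muscle. In fat they were 0.23% and 0.596%. The methods' two-way test called 0 members after adjustment, and 0, 1 and 0 at the threshold of the methods, beside 10.9, 5.51 and 6.63% of all genes. The members had medians of 0.03 (liver), -0.04 (muscle) and 0.01 (fat). The member differences ran from -0.42 (Psma8) to 0.42 (Psmb9) in liver, from -0.20 (Psmd4) to 0.36 (Psmb9) in muscle and from -0.24 (Psmd1) to 0.33 (Psma8) in fat. The median SE of the members was 0.09, 0.07 and 0.08, and the largest 0.28, 0.19 and 0.24. None of these differences passed the test, which does not show that genotype had no effect on single genes. Under normexp, 3 liver members were called higher (Psmc5, Psmd1 and Psmd14), and with median scaling 2 were called lower (Psmb6 and Psmd3), the all-gene median then being -0.11. Leaving out Akt1+/- 8-week replicate 1 called Psmd1 in liver, and leaving out Akt1+/- 35-week replicate 2 called Psmb9.

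Psmb9 in liver came closest, with 2.42, 2.23 and 2.25 in the 8-week Wt arrays and 2.97, 2.32 and 2.73 in the Akt1+/- arrays. At 35 weeks the Wt arrays read 2.17, 2.13, 2.21 and 1.86 and the Akt1+/- arrays 2.53, 2.08, 3.06 and 2.53. The genotypes overlapped at both ages, and the difference was 0.42 ± 0.14 (adjusted p = 0.0945). Of the listed neighbours in that pathway, Tap1 (0.57 ± 0.13, adjusted p = 0.027) and the interferon-inducible Igtp (0.62 ± 0.14, adjusted p = 0.0311) were called higher in Akt1+/- liver, on slides that differ by genotype. Tap1 was the 1 called of 12 class I genes, of which 9 had values below 0 (median -0.07), and Igtp the 1 called of 17 interferon genes, of which 14 had values above 0. Of the T cell markers 1 of 5 was called higher too, and all 4 leukocyte markers had values above 0 with none called. The part of these cells was not tested. In muscle at 8 weeks Psmb8 and Psmb9 differed by 0.51 ± 0.20 and 0.65 ± 0.29, with adjusted p of 0.262 and 0.303, and at 35 weeks by -0.03 ± 0.18 and 0.07 ± 0.25. The Akt1+/- array that shared a slide with the Wt arrays at 8 weeks gave 0.76 and 1.01 against them, and with 1 array in that arm the difference had no replicate check. Leukocyte markers summed to 1.84 to 2.66 in the 8-week Akt1+/- muscles and 0.789 to 1.35 in the Wt muscles, and macrophage markers to 3.69 to 4.99 and 1.81 to 3.70. Their part in these values was not tested.

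**Figure D5:**
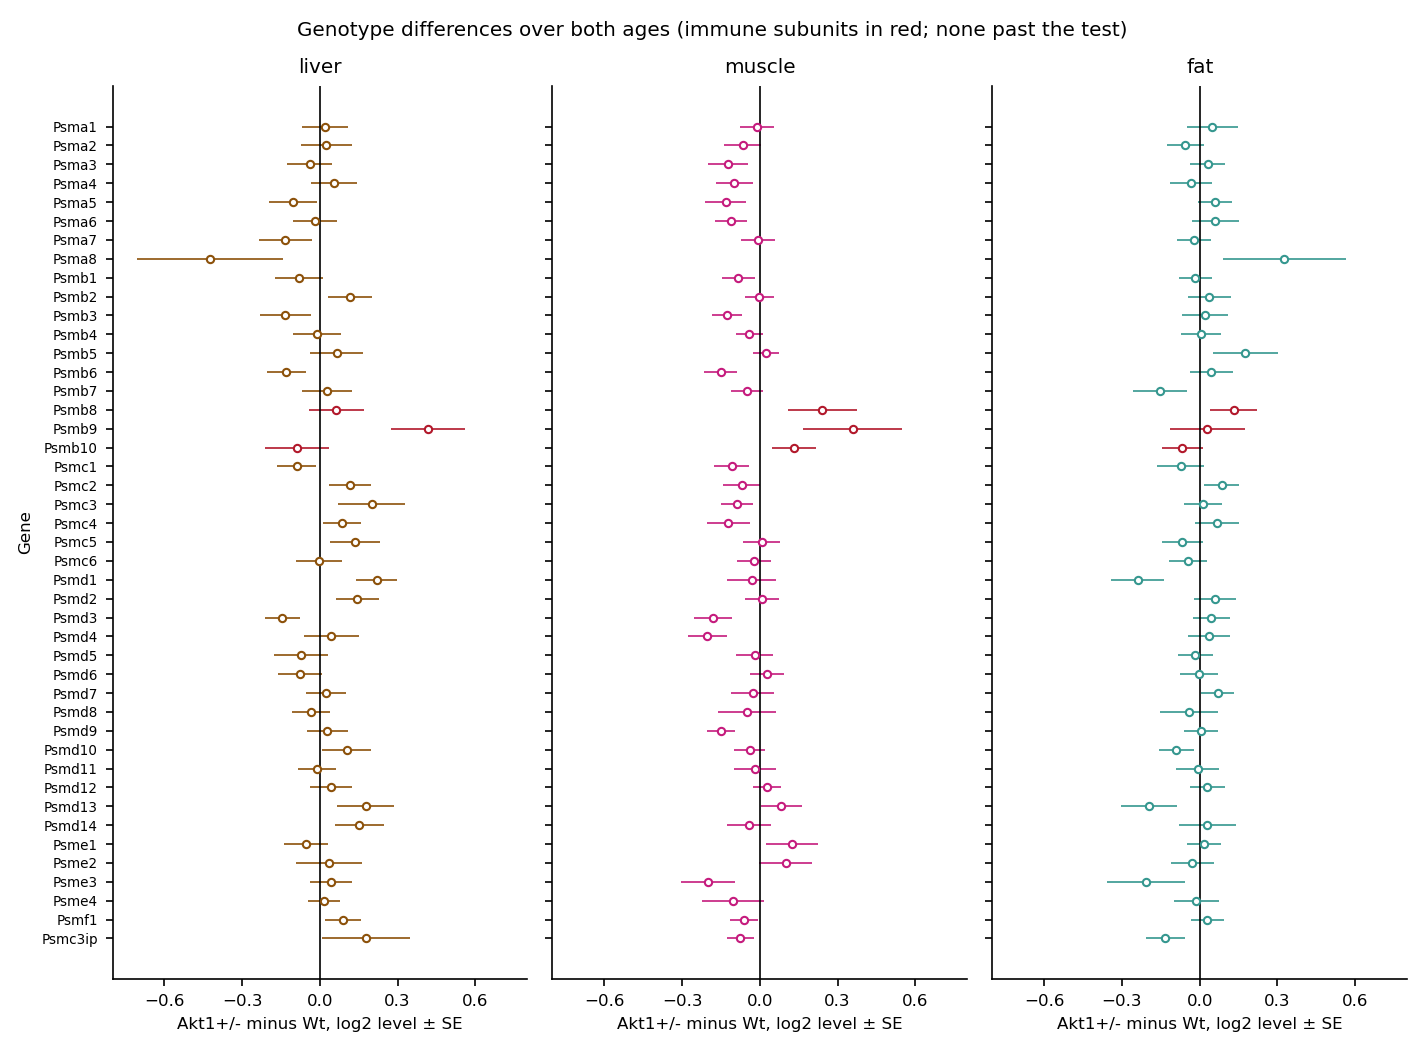
Genotype difference in log2 level (Akt1+/- minus Wt over both ages, x axis, points with SE) of each gene (y axis) in liver, muscle and fat, with the immune subunits in red; Psma8 is not drawn for muscle, where it was below background. No point passed the test, and the values lie between -0.42 and 0.42.

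The genotype difference was also compared between ages. The interaction was called for 0 members in each tissue, with 3, 2 and 5 at an unadjusted p below 0.05 in liver, muscle and fat (13.8, 8.33 and 20.1% of all genes), and 0 by the methods' two-way test after adjustment. Among all genes the interaction was called higher and lower in 0.372% and 0.143% in liver, and in 0% and 0% in muscle. For fat these shares were 0.547% and 0.995%. The member with the lowest unadjusted p (0.000769), named after its values were seen, was Psme3 in muscle. At 8 weeks its levels were 5.55, 5.69 and 5.63 in Wt and 5.40, 4.80 and 4.70 in Akt1+/-. At 35 weeks they were 5.22, 5.38, 5.38 and 5.45 in Wt and 5.41, 5.69, 5.65 and 5.74 in Akt1+/-. The genotypes did not overlap at 8 weeks, with Akt1+/- lower, and the interaction was 0.92 ± 0.21 (adjusted p = 0.311). Without Akt1+/- 8-week replicate 1 it was called. That array was on the slide of the Wt arrays and gave -0.23 against them, while the other Akt1+/- arrays, at 4.80 and 4.70, were on another slide, so slide moves with this difference and its part was not tested.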

How the data were processed

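Gene expression was measured on 42 arrays. The authors scanned them with Agilent Feature Extraction (9.5.3.1 in the file headers, 9.1 in the submitters' processing notes), and the deposited processed signals are spot intensity values after background subtraction and detrending, without normalization across arrays. A table of log2 values was deposited by the authors too, normalized in GeneSpring, whose columns correlated with the values used here at 0.999961 or more and had medians of -3.69 to -3.27. How they were centred is not stated in full, and the table served as an alternative.

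Spots of 1 probe were averaged, after removal of control spots and of 423 probes that had a spot marked as an outlier. The log2 intensity minus the 75th percentile of the array was analysed. Probes entered when at least 3 arrays of 1 group had them well above background, and the brightest probe stood for a gene. Genes were fitted with limma 3.58.1 (R 4.3.3) in each tissue and, for tissue comparisons, over the 42 arrays, with Benjamini-Hochberg adjustment over all genes tested and a threshold of 0.05. Precision is limited by how many arrays there are.

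The 44 members and the lists (partners and regulators, ubiquitin, class I, interferon response, muscle ubiquitin ligases, cell type markers) were chosen with earlier results of these data known. By the rule for named genes, the text gives the catalytic genes, Psme1 and Psme2, members not above background in a tissue, up to 3 called members in each direction with the largest differences, the 3 called members with the lowest p for differences between age changes, and up to 4 called genes of each related list. Other members were named as examples of their role after their values were seen. Proteins were not analysed here. The fits were tested on simulated data, where 43% of genes changed by 0.5 and 81% changed by 1 on the log2 scale were recovered for liver age (17457 genes). Only 100 genes of each size were changed there, whereas 34.8% of all genes were called for liver age in the data. The recovery therefore holds for the simulated setting.

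Replicate numbers were not treated as pairs. Alternatives covered normalization, scaling, filters, probes, blocks, tests and leaving out each array. Tables and figures were made with Python 3.11.15, pandas 2.3.3, numpy 2.4.6 and matplotlib 3.10.9.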

Additional observations from a re-analysis of the deposited data

Results flagged for a closer look

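For 25 named members, 150 groups of 4 arrays were examined for an array far from the rest, and 5 groups held one. Chance marks about 1 in 20 such groups. Psme2 read 4.9283 on 1 array of the 35-week Wt livers, where the others read 5.4003 to 5.464, and 3.6643 on 1 array of the 35-week Wt muscles, where the others read 3.9614 to 4.0095. Psmc5 read 3.4372 on 1 array of the 35-week Akt1+/- livers, beside 3.322 to 3.332. In 35-week Akt1+/- muscle, Psmd5 read 1.7956 on 1 array beside 1.6144 to 1.6397, and Psmd9 read 0.1143 beside 0.1964 to 0.2075.

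The change with age differed between tissues for 6 named genes by limma's test of that difference. Between muscle and liver it differed by -0.457891 for Psmf1 (adjusted p = 0.000156), 0.501882 for Psmd3 (adjusted p = 0.000437), -0.520587 for Psmd10 (adjusted p = 0.000635), and by 0.500273 for Psmb10 (adjusted p = 0.0114). Between fat and liver it differed by 0.421796 for Psmd9 (adjusted p = 0.00122) and by -0.412962 for Psmd13 (adjusted p = 0.0463), and the difference for Psmd13 no longer passed under 4 other settings. Between fat and muscle it differed by 0.717879 for Psmd10 (adjusted p = 1.9e-05), 0.564302 for Psmd9 (adjusted p = 6.16e-05) and 0.454542 for Psmf1 (adjusted p = 0.000209). Age and scan day cannot be told apart in any of these.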

How the results depend on the processing

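Over the 15 counts of called members, 160 values under other settings lay within 1.5 times the reported count and 17 did not, and no called difference of a single named gene turned its sign. Splits by direction did turn: the age change of muscle against liver went from 2 higher and 6 lower to 4 higher and 2 lower with median scaling, and the liver genotype calls were all higher with normexp and all lower with median scaling. The cause of these shifts was not tested. With normexp and quantile normalization, the count was 3 for liver genotype, 15 for liver age, 14 for fat age, 5 for fat against liver, 23 for fat against muscle, and for the age change 16 (muscle against liver), 5 (fat against liver) and 13 (fat against muscle). With median scaling it was 2 for liver genotype, 18 for liver age and 9 for the age change of fat against liver. Liver age gave 14 when the 42 arrays were fitted together, 4 with slide as a random block and 4 with dim probes kept. The age change of fat against liver gave 1 without the filter, 1 with the replicate block and 1 with slide as a random block. Leaving out each array in turn gave 0 to 1 for liver genotype, 4 to 13 for liver age, 6 to 12 for muscle age and 0 to 1 for the muscle interaction. The other counts so examined stayed within 1.5 times. Counts for the age change between tissues were not refitted in this way. Arrays with the same replicate number correlated at -0.20 to 0.07 at 8 weeks and 0.11 to 0.52 at 35 weeks. At 35 weeks 12 of 12 pairs were best matches, but each replicate number was there also the position on the slide. At 8 weeks same-number arrays of the genotypes held different positions. Replicate number and position thus cannot be told apart at 35 weeks, also in the replicate block, and the design names no pairs. With the replicate block, liver age gave 6, muscle age 13 and fat age 7 members. For single named genes, 22 values under other settings newly passed, 37 no longer passed and 1785 kept their side of the threshold. Signal near background limits Psma8 and Psmc3ip.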
